A study of Mus musculus with 12 samples.

Results

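Human-like oncostatin M (hlOSM), a cytokine that reaches both receptor arms of mouse cells, was compared with phosphate-buffered saline (PBS) in 6 of the 12 samples of the series, the 3 that received hlOSM and the 3 PBS controls. Every gene that reached 10 normalized counts in 3 or more of the 12 samples was tested, which gave 13184 of the 22915 genes in the table, 11831 of them protein-coding. The series measured RNA by sequencing in primary cardiomyocytes of male C57/Bl6 mice aged 12 weeks, kept under normoxia and treated for 24 h. Besides hlOSM, murine OSM (mOSM) and murine LIF (mLIF) were each given to 3 samples, and the labels put each cytokine at 25 ng/ml, where the methods give another concentration. hlOSM is mouse OSM with the AB loop of the human protein, a loop that decides which receptors OSM binds. Summed over genes, the normalized counts of the 6 samples lay between 2745748 in hlOSM sample 1 and 2911689 in PBS sample 3.

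Oncostatin M and LIF act through receptors that join the shared chain gp130, encoded by Il6st, to OSMR or LIFR. The receptors switch on Janus kinases, which phosphorylate STAT factors, and STAT3 induces SOCS3, which brakes the same pathway. In the heart, OSM is best known for driving cardiomyocytes to dismantle their contractile apparatus and take on features of less mature cells, and in many tissues it calls up acute phase and inflammatory genes.

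After 24 h with hlOSM, most genes in the lists of the sarcomere, of calcium handling and of cardiac ion channels were lowered, and 9 acute phase and iron genes at 10 or more in all 6 samples were all raised. Il33, an alarmin cytokine, rose most among the genes with a mean of at least 50 and no overlap of the samples. Adcyap1r1, the receptor for the neuropeptide PACAP, fell most under the same limits. Il33, Kbtbd11 and Serpinb2 had at most 13 normalized counts with PBS and met the mean of 50 only through the hlOSM samples. The log2 fold change of Il33 ranged from 4.35 to 5.61 over the settings tried. The lowest for Kbtbd11 was 4.38, so Il33 was not first under every setting. At a Benjamini-Hochberg adjusted p under 0.05 in limma, 2393 genes were raised, 18.2% of those tested, and 2609 were lowered, 19.8%. With the replicate number as a block, 1942 genes (14.7%) were raised and 2178 (16.5%) lowered. Same-numbered samples deviated in opposite directions here, and on simulated data with that pattern the fit without the block gave too many small p-values and the fit with it did not, so the counts with the block are the more cautious. In 6199 genes, 47.0% of those tested, the 3 hlOSM samples did not overlap the 3 PBS samples, among them 2273 raised and 2478 lowered genes. Most changes were small, with a median size of 0.48 in the raised set and 0.47 in the lowered set on the scale of log2(normalized count + 1), which all log2 values here share. A change of at least 2-fold was reached by 403 raised and 442 lowered genes. At least 8-fold was reached by 38 and 6. The median log2 fold change of all genes tested was −0.01. A gene low in 1 group can reach the filter only through the group where it is high. In a count chosen after the data had been seen, 11546 genes were at 10 or more in all 6 samples, of which 2110 were raised (18.3%) and 2290 lowered (19.8%), and for lists that lost 2 or more calls this count is given below. The shares of all genes tested, 18.2% raised and 19.8% lowered, are the reference for every list count against PBS below.

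Among the largest rises, Il33 (ENSMUSG00000024810, chromosome 19, 29925114 to 29960718 of mm10) stood at 11, 5 and 2 normalized counts in the PBS samples and at 196, 173 and 261 in the hlOSM samples. Its log2 fold change was 5.11 with a standard error (SE) of 0.34 and an adjusted p of 1.26e-10. The gene was low in all 3 controls and high in all 3 treated samples. Serpinb2 (ENSMUSG00000062345, chromosome 1, 107511423 to 107535478), the plasminogen activator inhibitor PAI-2, went from 11, 5 and 6 to 126, 191 and 158 normalized counts. Its log2 fold change was 4.30 (SE 0.22, adjusted p = 2e-12), and 12.4% of its exonic bases overlap another gene on the same strand. Kbtbd11, a gene of the Kelch family, rose from 11, 13 and 4 to 256, 216 and 403, and 24.8% of its exonic bases are shared with an opposite-strand gene. PBS sample 3 was the lowest and hlOSM sample 3 the highest of the 6 for Il33 and Kbtbd11.

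Abi3bp (ENSMUSG00000035258, chromosome 16, 56477878 to 56690135), a matrix-associated protein, had 20, 18 and 25 normalized counts with PBS and 288, 293 and 294 with hlOSM. The 3 treated samples were almost equal, and the log2 fold change was 3.75 (SE 0.12, adjusted p = 7.98e-16). Cpxm1, a secreted member of the carboxypeptidase family, went from 28, 22 and 15 to 268, 274 and 417. Prg4, which encodes the joint lubricant lubricin, went from 11, 27 and 16 to 267, 131 and 213. Itgb8, an integrin chain that activates latent TGF-beta, went from 26, 30 and 23 to 242, 241 and 320. The log2 fold changes were 3.83 for Cpxm1, 3.46 for Prg4 and 3.29 for Itgb8. The samples of these 3 genes did not overlap, which the rule for the largest rises required.

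**Figure D1:**
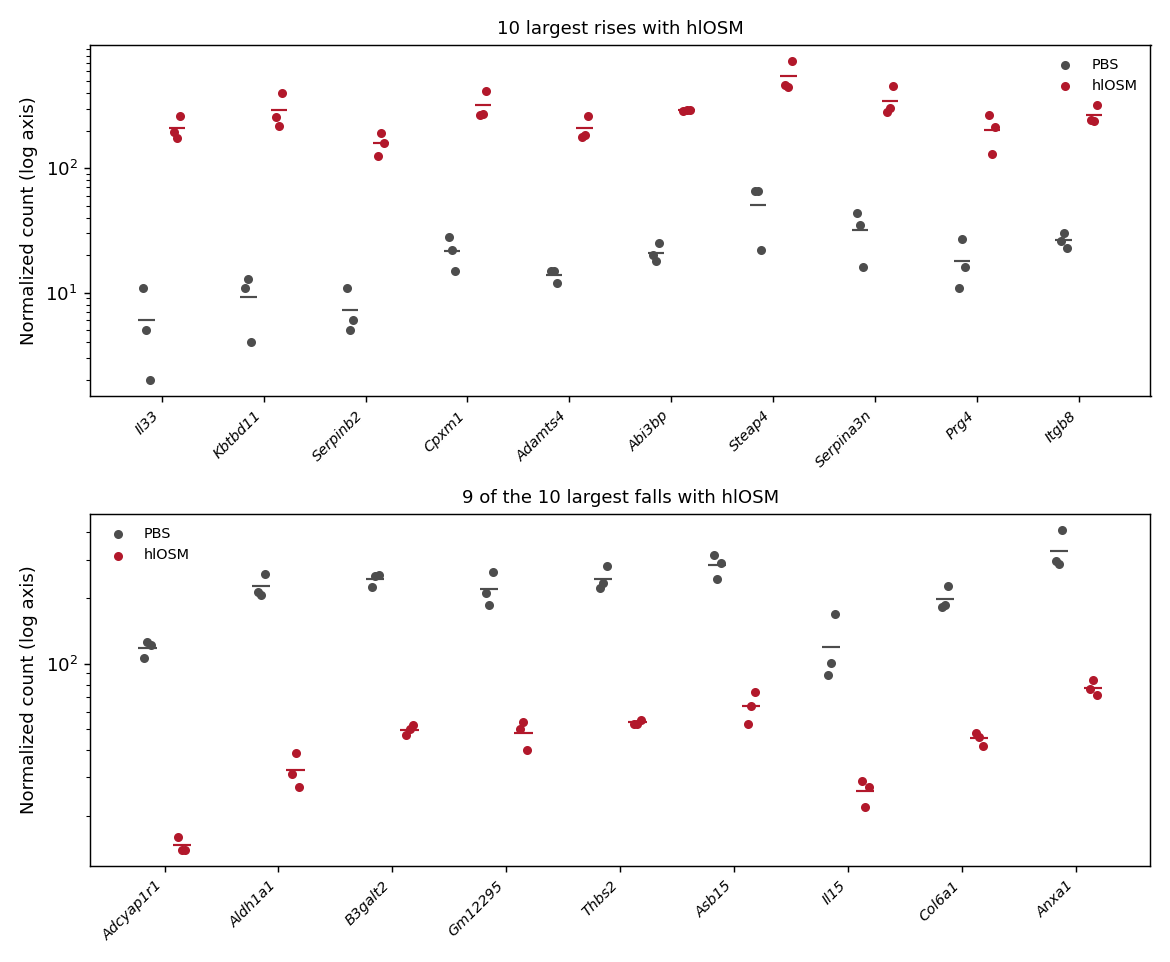
Normalized counts on a log axis in each PBS and hlOSM sample (points) for the 10 largest rises and for 9 of the 10 largest falls. Il33 moved from 2 to 11 with PBS to 173 to 261 with hlOSM, and Adcyap1r1 from 106 to 126 down to 14 to 16.

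On the side of the falls, Adcyap1r1 (ENSMUSG00000029778, chromosome 6, 55451978 to 55501451) had 106, 126 and 122 normalized counts in the PBS samples and 16, 14 and 14 in the hlOSM samples. Its log2 fold change was −2.92 (SE 0.14, adjusted p = 5.65e-13). All 3 treated samples sat far under the controls. Aldh1a1 (ENSMUSG00000053279, chromosome 19, 20492715 to 20643465), a retinaldehyde dehydrogenase, fell from 214, 206 and 258 to 31, 39 and 27, a log2 fold change of −2.78 (SE 0.13, adjusted p = 3.81e-13). Aldh1a2, the related enzyme that leads retinoic acid synthesis in the embryonic heart, moved the other way, from 205, 206 and 171 to 374, 344 and 398. The pair thus changed in opposite directions with no overlap of the samples in either gene. B3galt2, a galactosyltransferase, fell from 224, 252 and 254 to 47, 50 and 52. The gene Gm12295, of unknown function, had a log2 fold change of −2.17.

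The receptor chains and kinases came to 10 tested genes, of which Osmr, Il6st, Jak2 and Jak3 rose and Il6ra fell, with a median log2 fold change of −0.01. Osmr (ENSMUSG00000022146), the chain specific for OSM, had 762, 735 and 560 normalized counts with PBS and 1264, 1321 and 1732 with hlOSM, a log2 fold change of 1.07 (SE 0.1, adjusted p = 1.87e-08). Every treated sample was above every control. For Lifr, the other arm, the controls had 344, 328 and 431 normalized counts and the treated samples 354, 364 and 373, which lie inside the range of the controls, and the adjusted p was 0.966. The shared chain Il6st moved little, from 1904, 1791 and 1944 to 2112, 2128 and 2152. Jak2, a kinase bound to gp130, rose from 408, 433 and 454 to 609, 600 and 574. Jak3, known mainly from lymphocytes, was low, at 21, 16 and 19 with PBS and 44, 49 and 49 with hlOSM. Il6ra, the IL-6 receptor chain, fell by 1.00 on the log2 scale, from 23, 28 and 25 to 15, 9 and 13. Jak3 and Il6ra were named after their values had been seen. The count of lowered genes in this list was 2 without PBS sample 1. Osm itself had a normalized count of at most 1 in all 12 samples.

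Of the 21 tested STAT factors and brakes of the pathway, 5 rose (23.8%) and 3 fell (14.3%), against 18.2% and 19.8% of all genes. Socs3 (ENSMUSG00000053113), the brake induced by STAT3, had 199, 209 and 168 normalized counts with PBS and 892, 804 and 899 with hlOSM, the largest change of the list, and its log2 fold change was 2.17 (SE 0.08, adjusted p = 8.8e-15). Stat3 rose from 1092, 1047 and 990 to 1267, 1296 and 1440. Stat5a rose from 118, 115 and 165 to 222, 210 and 231. Ptpn1, a phosphatase that acts on Janus kinases, rose from 183, 198 and 204 to 241, 254 and 240. None of these 4 genes had overlapping samples. The lowered genes were Socs4, Socs7 and Cish, the last a target of STAT5, with log2 fold changes of −0.17, −0.27 and −0.27, and they were named after their values had been seen. Socs4 was lost with the block, and the lowered genes numbered 1 without PBS sample 3 and 0 without hlOSM sample 2.

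Early response genes of the AP-1 kind split evenly, with 6 of 20 raised, 6 lowered and a median log2 fold change of −0.07. Arc, an activity-regulated gene, fell from 225 ± 15.3 (SD, n = 3) normalized counts to 86.3 ± 13.1 (SD, n = 3). Egr2 fell from 90, 81 and 87 to 41, 44 and 54. Ier3, an early gene linked to cell survival, rose from 240, 201 and 188 to 362, 356 and 412. All 3 were without overlap of the samples. In the NF-kB list of 14 genes, Bcl3, an atypical IkB protein, rose from 83, 89 and 72 to 153, 153 and 201, and Nfkbiz, Nfkbib and Ikbkb also rose. The inhibitors Nfkbia and Tnfaip3 fell by 0.35 and 0.46 on the log2 scale, as did Nfkb2 and Relb by 0.35 and 0.22. Nfkbib, Ikbkb and Relb were not past the threshold with the block, and the raised genes of this list numbered 1 without PBS sample 3 and 2 without hlOSM sample 3. Nfkbiz, Nfkbib, Ikbkb and Relb were named after their values had been seen.

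Among 13 genes of the C/EBP and MYC network, Cebpd, Mxd1, Mlx and Myc rose. Cebpd, an acute phase transcription factor, went from 90, 85 and 50 normalized counts to 191, 168 and 232, a log2 fold change of 1.41 (SE 0.16, adjusted p = 4.79e-07). Myc went from 262, 239 and 267 to 357, 304 and 383, and Mxd1, a partner of MAX that opposes MYC, from 72, 87 and 76 to 145, 103 and 122. Both had every treated sample above every control. Mxd4, Cebpg, Mxd3 and Mycn fell, the last pair not past the threshold with the block, and 2 genes were lowered without hlOSM sample 1 or sample 2. Mlx, Mxd3 and Mycn were named after their values had been seen. Of the 11 genes at 10 or more in all 6 samples, 4 were raised and 2 lowered.

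In the acute phase and iron list, 9 genes were at 10 or more in all 6 samples, and all 9 were raised, with and without the block, with a median log2 fold change of 0.57. The other 3 tested genes, which were also raised, had a PBS sample under 10 and are left out of this count. Steap4 (ENSMUSG00000012428, chromosome 5, 7960457 to 7982213), a metalloreductase, had 66, 65 and 22 normalized counts with PBS and 461, 447 and 729 with hlOSM, a log2 fold change of 3.51 (SE 0.27, adjusted p = 1.19e-09). PBS sample 3 was the lowest and hlOSM sample 3 the highest, with a wide gap between the groups. Mt1, a metallothionein that binds zinc and copper, rose from 75, 57 and 45 to 176, 181 and 256. Slc39a14, a zinc and iron importer, rose from 484, 488 and 496 to 881, 918 and 987. Fth1, the heavy chain of ferritin, rose from 476, 443 and 454 to 603, 573 and 644. Hamp, which encodes the iron hormone hepcidin, stayed low, at 4, 1 and 1 with PBS and 11, 29 and 12 with hlOSM. Lcn2, the iron-carrier-binding lipocalin, had 3, 5 and 1 with PBS and 11, 11 and 21 with hlOSM. Fth1, Hamp and Lcn2 were named after their values had been seen. Of the 28 genes on the list, 19 were in the table and 7 of those did not reach the filter on low values.

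Serpins, inhibitors of proteases, had 6 of 14 raised and 3 lowered, and 5 of 12 and 2 among those at 10 or more in all 6 samples. Serpina3n, an acute phase serpin, went from 44, 35 and 16 normalized counts to 283, 301 and 458. Serpinb1a, an inhibitor of neutrophil proteases, went from 211, 215 and 111 to 524, 486 and 614. Their log2 fold changes were 3.49 and 1.65, and the samples did not overlap. Serpinb9, the inhibitor of granzyme B, fell from 95, 113 and 103 to 83, 78 and 72. Serpinc1 and Serpini1, named after their values had been seen, fell by 1.16 and 1.90 on the log2 scale.

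Cytokine genes moved in both directions. Of 14 tested, 7 were at 10 or more in all 6 samples, 2 of them raised and 3 lowered with a median log2 fold change of −0.14, and of the other 7, each with a sample under 10, 4 were raised and 1 lowered. Il6 had 8, 15 and 11 normalized counts with PBS and 110, 58 and 92 with hlOSM, a log2 fold change of 2.82 (SE 0.23, adjusted p = 3.13e-09). Clcf1, another ligand of the IL-6 family, rose from 49, 50 and 43 to 124, 111 and 155. Lif rose from 77, 68 and 92 to 131, 112 and 99, and was named after its values had been seen. In all 3 ligand genes the treated samples were above the controls. Il15, a cytokine that sustains natural killer cells, lay between 89 and 169 with PBS and fell to 29, 22 and 27, a log2 fold change of −2.11. Kitl, the ligand of KIT, fell from 859, 839 and 741 to 576, 555 and 730. Tslp, the lowered gene with a sample under 10, fell from a mean of 86.7 normalized counts with PBS to 9.67 with hlOSM. Its log2 fold change was −3.04 (adjusted p = 2.54e-12), and it was named after its values had been seen. Tnfsf11, or RANKL, was listed at 0 in the 3 PBS samples and had 24, 18 and 12 normalized counts with hlOSM.

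Of 17 chemokines tested, 11 were at 10 or more in all 6 samples, with 2 raised, 2 lowered and a median log2 fold change of 0.08. The other 6, each under 10 in at least 1 PBS sample, were all raised. Cxcl5, which attracts neutrophils, went from 91, 72 and 67 normalized counts to 153, 132 and 197. Ccl11, or eotaxin, went from 8, 6 and 4 to 62, 48 and 69. Cxcl9, a ligand of CXCR3 on T cells, went from 1, 2 and 3 to 12, 14 and 12. Each of these had the treated samples above the controls. Ccl7, which attracts monocytes, had 64, 50 and 51 with PBS and 77, 64 and 81 with hlOSM, where hlOSM sample 2 equalled PBS sample 1. Its adjusted p of 0.0135 did not hold without PBS sample 2, PBS sample 3 or hlOSM sample 3. Ccl2 and Cxcl12 were not past the threshold, with log2 fold changes of −0.09 and 0.06. Cx3cl1 and Ccl9 fell, by 1.01 and 1.03 on the log2 scale. Ccl11, Ccl2, Cxcl12, Cx3cl1 and Ccl9 were named after their values had been seen.

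The selectins led the list of leukocyte adhesion and complement, where 5 of 19 genes rose and 5 fell. Selp, or P-selectin, had 37, 35 and 34 normalized counts with PBS and 191, 196 and 203 with hlOSM, a log2 fold change of 2.44 (SE 0.11, adjusted p = 2.8e-13). Sele, or E-selectin, had 36, 34 and 25 with PBS and 167, 147 and 196 with hlOSM. Both catch leukocytes on endothelium, and both were without overlap of the samples. Fgl2, a prothrombinase, rose from 377, 341 and 304 to 817, 799 and 948, and Cd44, the hyaluronan receptor, from 411, 377 and 290 to 649, 682 and 832. The lowered genes, Vcam1, C3, Cd55, Cd59a and Masp1, had log2 fold changes between −0.74 and −0.22, were named after their values had been seen and numbered 3 without PBS sample 3.

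Interferon-stimulated genes went down as a list, with 22 of 33 lowered and 2 raised, and 19 and 2 with the block. Of the 26 at 10 or more in all 6 samples, 17 were lowered and 2 raised, with a median log2 fold change of −0.63. Ifit1, an antiviral RNA-binding protein, fell from 54, 79 and 115 normalized counts to 22, 17 and 18, a log2 fold change of −2.01 (SE 0.21, adjusted p = 8.73e-08). Ifih1, the sensor MDA5, fell from 80, 108 and 107 to 58, 42 and 44, and Oasl2 from 60, 76 and 77 to 41, 29 and 25. In all 3 the controls were above the treated samples, and PBS sample 1 was the lowest control. Usp18, which damps the interferon receptor, fell from 26, 22 and 42 to 6, 6 and 3. Gbp2 and Gbp5, guanylate-binding proteins, rose from 41, 39 and 44 to 64, 65 and 66 and from 13, 11 and 15 to 34, 22 and 24. The raised genes numbered 1 without PBS sample 2 or hlOSM sample 1. Usp18, Gbp2 and Gbp5 were named after their values had been seen. In the list of MHC class I presentation, Tapbp and Psmb10 fell by 0.24 and 0.39 on the log2 scale and the other 16 of 18 genes were not past the threshold, and 1 gene was lowered without PBS sample 3, hlOSM sample 1 or hlOSM sample 3. For Psmb10 the samples overlapped, and its call was also lost without PBS sample 1.

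Matrix genes fell more often than they rose, with 20 of 36 collagens and matricellular genes lowered, 9 raised and a median log2 fold change of −0.32. Col6a1, a chain of collagen VI, fell from 181, 185 and 228 normalized counts to 48, 46 and 42, a log2 fold change of −2.10 (SE 0.1, adjusted p = 9.05e-13). Col6a2, its partner chain, fell from 125, 129 and 141 to 43, 46 and 41. Thbs2, or thrombospondin-2, fell from 222, 233 and 281 to 53, 53 and 55. Col15a1, a basement membrane collagen, fell from 407, 330 and 466 to 108, 133 and 104. The treated samples of these 4 genes lay close together and far under the controls. Col3a1, by contrast, rose from 394, 418 and 385 to 848, 719 and 904. Among other raised members, chosen after their values had been seen, Spp1, or osteopontin, went from 131, 93 and 104 to 335, 343 and 440, and Thbs4 from 76, 77 and 34 to 241, 266 and 325.

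Proteases of the matrix and their inhibitors had 4 of 20 raised and 6 lowered, and 3 of 17 and 5 among those at 10 or more in all 6 samples. Adamts4, an aggrecanase, had 15, 15 and 12 normalized counts with PBS and 177, 186 and 261 with hlOSM, a log2 fold change of 3.79 (SE 0.15, adjusted p = 3.05e-14). Timp1, an inhibitor of metalloproteinases, rose from 98, 87 and 68 to 237, 226 and 285. Timp2, a related inhibitor, fell from 166, 165 and 189 to 80, 74 and 77. Treated samples and controls did not overlap in any of the 3. Adamts9 rose as well, from 258, 256 and 256 to 393, 401 and 413, and the remaining raised gene was Mmp13, a collagenase named after its values had been seen, with a log2 fold change of 1.57.

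Because STAT dimers bind the palindrome TTCNNNGAA, the 250 bases upstream of RefSeq transcript starts, which can differ from the gene spans given elsewhere in this report, were searched for these letters, which read the same on both strands. RefSeq (GRCm38.p6) windows were matched by symbol for 80.1% of the 11831 tested protein-coding genes. The letters were in 7.02% of all 32851 windows and in 5.87% of the windows of tested protein-coding genes. Windows were found for 79.2% of raised and 78.4% of lowered genes, under the 80% set for a comparison, so the shares in raised and lowered genes were not compared. Of the 41 genes named by rule that rose at least 2-fold, 29 had a window, too few for a share by the same limit, and 23 of those held no match. Among the 6 with a match, it lay before the start of the gene span for Steap4 and Sele, across that start for Fgl2, and inside the gene span for Socs3, Pde4b and Serpinb2. The window of Sele is shown because the gene belongs to a response described above and no base of the window lies in an annotated exon. It is chr1:164047984-164048233 on the plus strand, with the match starting 140 bases before the gene, and is written 5′ to 3′ on the strand of the gene with the matching letters in capitals. A match describes the sequence and was not tested as a binding site.
Sele: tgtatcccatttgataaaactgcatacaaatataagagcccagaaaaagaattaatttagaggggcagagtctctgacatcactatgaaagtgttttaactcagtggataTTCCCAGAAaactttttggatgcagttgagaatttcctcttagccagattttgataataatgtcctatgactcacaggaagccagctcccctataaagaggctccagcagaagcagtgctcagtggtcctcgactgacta

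In the list of the thick filament and M-band, 13 of 17 genes were lowered and 0 raised, with a median log2 fold change of −0.44, and in the list of the thin filament and troponins 15 of 17 were lowered and 0 raised, with a median of −0.37. The counts were the same with the block, and 0 were raised in either list at an unadjusted p under 0.05 in limma. Ttn (ENSMUSG00000051747, chromosome 2, 76703980 to 76982547), the giant spring protein titin, had 32687, 32934 and 33150 normalized counts with PBS and 22374, 24446 and 23871 with hlOSM, a log2 fold change of −0.48 (SE 0.05, adjusted p = 3.03e-07). Mylk3, the cardiac myosin light chain kinase, fell from 1077, 1056 and 1293 to 530, 603 and 509. The controls lay above the treated samples in both. Myh6, the main adult myosin heavy chain of the mouse heart, fell from 3631, 3603 and 4060 to 3026, 3061 and 2716, and Myh7, the slow form, from 457, 463 and 475 to 330, 334 and 283. With quantile normalization, Myh6 was not past the threshold. That setting gives each rank the same value in every sample, so Ttn, the most abundant gene tested, had a log2 fold change of 0.0 there. Quantile normalization therefore cannot show whether Ttn changed. Over the 3296 tested genes with the highest mean normalized counts, 28.4% were lowered and 18.2% raised.

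On the thin filament, Tnnt2, cardiac troponin T, fell from 1924, 1786 and 1972 normalized counts to 1276, 1292 and 1292, a log2 fold change of −0.56 (SE 0.07, adjusted p = 5.86e-07). Nebl, or nebulette, fell from 1686, 1604 and 1814 to 892, 998 and 955. Tpm2, a tropomyosin, fell from 79, 94 and 86 to 31, 28 and 13. No sample of one group reached into the other in these 3 genes. Tnni3k, a kinase that binds troponin I, fell by 0.68 on the log2 scale.

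At the Z-disc, the costamere and the intercalated disc, 17 of 33 genes were lowered and 6 raised, with a median log2 fold change of −0.15. Ldb3, the Z-disc protein cypher, fell from 1190, 1089 and 1279 normalized counts to 559, 571 and 611, a log2 fold change of −1.03 (SE 0.06, adjusted p = 8.14e-12). Dsp, the desmosomal protein desmoplakin, fell from 3633, 3557 and 3861 to 2502, 2514 and 2376, and Fsd2 from 763, 738 and 860 to 352, 427 and 350. In each, all controls exceeded all treated samples. Among the 6 raised genes, Dtna rose from 457, 442 and 457 to 730, 807 and 839, a log2 fold change of 0.81 (SE 0.06, adjusted p = 3.43e-10). Gja1, the gap junction protein connexin 43 named after its value had been seen, fell by 0.39 on the log2 scale.

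Calcium cycling followed the same direction, with 18 of 29 genes of the sarcoplasmic reticulum list lowered, 2 raised and a median log2 fold change of −0.32. Ryr2, the calcium release channel, fell from 5977, 5777 and 6228 normalized counts to 4639, 4891 and 4891, a log2 fold change of −0.32 (SE 0.05, adjusted p = 2.19e-05). Pln, phospholamban, fell from 1641, 1512 and 1741 to 1049, 1119 and 1155, and 64.7% of its exonic bases are shared with an opposite-strand gene. Jph2, which ties the reticulum to the T-tubules, fell from 505, 472 and 492 to 307, 320 and 375, and Srl, sarcalumenin, from 1219, 1153 and 1248 to 786, 810 and 841. All 4 were without overlap. Atp2a2, the calcium pump SERCA2, had 3627, 3458 and 3700 with PBS and 3142, 3324 and 3338 with hlOSM and was not past the threshold (adjusted p = 0.0884). With quantile normalization its log2 fold change turned from −0.14 to 0.16 (adjusted p = 0.002), while it was lowered past the threshold without mOSM sample 3 and in a fit of the 6 samples compared. Orai1, a store-operated channel named after its value had been seen, was raised, with a log2 fold change of 0.41. It was lost with the block, and 1 raised gene was counted without PBS sample 1 or 2, hlOSM sample 1 or 3, or mOSM sample 1. With quantile normalization 4 genes of this list were raised.

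Of 36 cardiac ion channel genes, 23 were lowered and 4 raised, with a median log2 fold change of −0.48. With the block 20 were lowered and 4 raised. Cacna1c, the pore of the L-type calcium channel, fell from 1236, 1286 and 1355 normalized counts to 713, 769 and 773, a log2 fold change of −0.78 (SE 0.06, adjusted p = 2.8e-10). Scn4b, a sodium channel subunit, fell from 270, 290 and 351 to 122, 124 and 98. Kcnd2, a potassium channel of the transient outward current, fell from 220, 220 and 237 to 109, 108 and 117. All 3 treated samples lay under the controls in each. Hcn4 (ENSMUSG00000032338, chromosome 9, 58823412 to 58863175), the pacemaker channel, moved the other way, from 40, 46 and 62 to 197, 171 and 165, a log2 fold change of 1.85 (SE 0.12, adjusted p = 1.07e-10). Kcnd3, named after its value had been seen, rose by 0.54 on the log2 scale.

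Receptors and enzymes of adrenergic and cyclic AMP signaling had 13 of 27 lowered and 2 raised, with 11 and 1 in the fit with the block. Besides Adcyap1r1, Chrm2, the muscarinic receptor of the heart, fell from 950, 893 and 984 normalized counts to 385, 420 and 400, a log2 fold change of −1.23 (SE 0.07, adjusted p = 3.83e-12). Adcy6, a cardiac adenylyl cyclase, fell from 557, 561 and 642 to 377, 372 and 377. Pde4b, which breaks down cyclic AMP, rose from 366, 417 and 388 to 907, 873 and 979. Neither the falls nor this rise had overlapping samples. Adrb1, the beta-1 adrenoceptor, had a log2 fold change of 0.03 and was not past the threshold. The other raised gene, Prkar2a, had a log2 fold change of 0.13 and was lost with the block. Only 1 gene was raised when PBS sample 2 or 3, hlOSM sample 1 or 3, any mLIF sample or mOSM sample 1 or 2 was left out. Adrb1 and Prkar2a were named after their values had been seen.

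Transcription factors of the cardiac lineage had 12 of 24 lowered and 4 raised, with a median log2 fold change of −0.23. Mef2c fell from 696, 624 and 701 normalized counts to 373, 408 and 409, a log2 fold change of −0.76 (SE 0.06, adjusted p = 1.22e-09), and Mef2a from 1300, 1313 and 1385 to 940, 941 and 989. Foxo3 fell from 432, 459 and 543 to 345, 297 and 325. Runx1, a blood lineage factor that reappears in injured heart muscle, rose from 178, 148 and 89 to 302, 326 and 433. All treated samples were on 1 side of the controls in these genes. Runx2, Prox1 and Foxc1, named after their values had been seen, also rose, Foxc1 not with the block.

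The list of fetal and dedifferentiation markers did not move as a unit, with 7 of 21 raised, 6 lowered and a median log2 fold change of −0.05. Besides Runx1, Acta1, the skeletal alpha actin of the fetal heart, rose from 354, 303 and 323 normalized counts to 390, 444 and 465, and Dab2 from 145, 141 and 152 to 228, 209 and 241. Nes, or nestin, rose from 408, 483 and 267 to 807, 758 and 924 and was named after its values had been seen. Acta2, smooth muscle actin, fell from 199, 200 and 278 to 86, 90 and 68. The treated samples of these genes were apart from the controls. Nppa, the natriuretic peptide ANP, fell by 0.37 on the log2 scale, and 61.5% of its exonic bases are shared with an opposite-strand gene. Nppb, the related peptide BNP, had 406, 370 and 366 with PBS and 353, 398 and 427 with hlOSM, which overlap, and its adjusted p was 0.742.

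**Figure D2:**
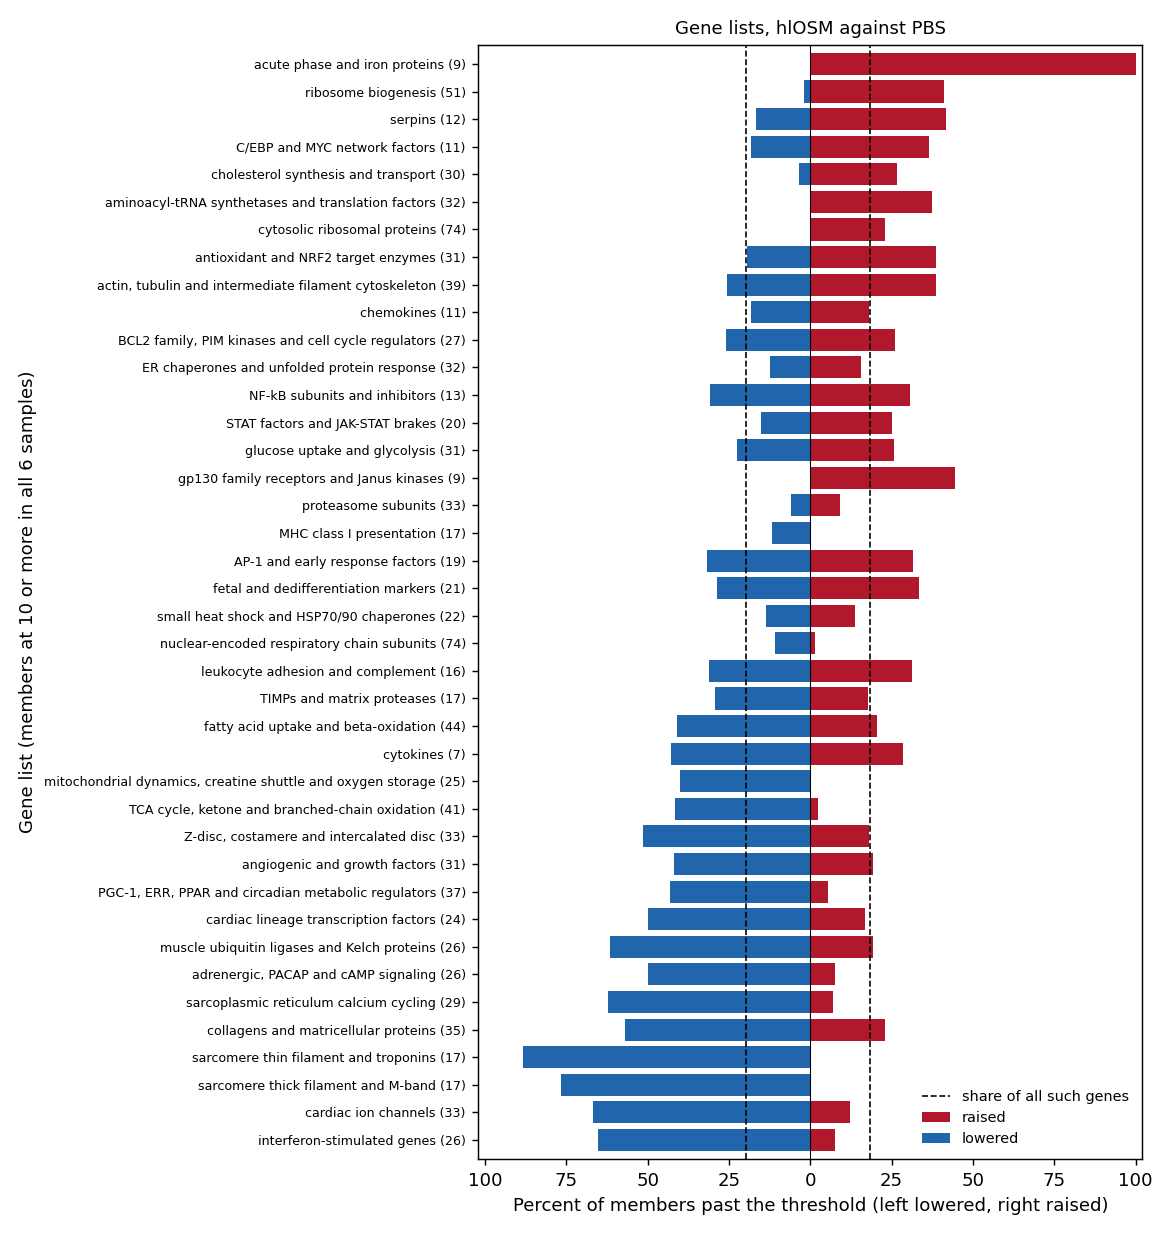
Percent of genes raised and lowered with hlOSM (horizontal axis, bars) among the members of each function list at 10 or more in all 6 samples, with the percent over all such genes drawn for reference. Of the thin filament list 15 of 17 genes were lowered, against 19.8% of all such genes, and all 9 genes of the acute phase and iron list were raised, against 18.3%.

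Regulators of energy metabolism had 16 of 37 lowered and 2 raised, with a median log2 fold change of −0.20. Ppargc1a, or PGC-1alpha, which drives mitochondrial genes, fell from 419, 422 and 413 normalized counts to 225, 225 and 240, a log2 fold change of −0.86 (SE 0.06, adjusted p = 2.05e-10). Perm1, a muscle regulator downstream of it, fell from 478, 459 and 561 to 194, 222 and 208. Esrrg, an estrogen-related receptor, fell from 148, 153 and 206 to 81, 97 and 90, and Per3, a circadian gene, from 187, 179 and 227 to 92, 90 and 85. In all 4 the treated samples were under the controls. The raised genes were Rarb, a retinoic acid receptor, from 135, 136 and 148 to 249, 269 and 244, and Ppard, from 181, 199 and 181 to 284, 261 and 292. For Rarb, 38.4% of the exonic bases are shared with an opposite-strand gene, and Ppard was named after its values had been seen.

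Among 46 genes of fatty acid use, 9 were raised and 18 lowered, with a median log2 fold change of −0.15, and 11 were lowered without PBS sample 3. Angptl4, an inhibitor of lipoprotein lipase, rose from 158, 113 and 68 normalized counts to 489, 562 and 715, a log2 fold change of 2.43 (SE 0.19, adjusted p = 1.58e-09). Acsl5, an acyl-CoA synthetase, rose from 108, 109 and 77 to 245, 228 and 296. Acacb, which makes the malonyl-CoA that restrains fat oxidation, fell from 1140, 1052 and 1233 to 744, 839 and 771. None of these had overlapping samples. Acsl1, the main acyl-CoA synthetase of the heart, was named after its value had been seen and fell by 0.45 on the log2 scale. Cpt1b, the muscle carnitine palmitoyltransferase, was near the filter, between 9 and 17 normalized counts in the 6 samples, and 81.4% of its exonic bases overlap a gene on the same strand, where reads were dropped.

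Glucose uptake and glycolysis had 9 of 34 raised (26.5%) and 7 lowered (20.6%), against 18.2% and 19.8% of all genes. The median was −0.01. Pfkfb3 and Pfkfb2, which both set the level of the activator of phosphofructokinase, changed in opposite directions. Pfkfb3 rose from 118, 107 and 126 normalized counts to 231, 234 and 260, a log2 fold change of 1.04 (SE 0.09, adjusted p = 3.99e-09). Pfkfb2, the heart form, fell from 164, 179 and 189 to 59, 65 and 61, a log2 fold change of −1.51 (SE 0.1, adjusted p = 1.4e-10). The glucose transporters split in the same manner. Slc2a4, the insulin-responsive GLUT4, fell from 206, 223 and 294 to 132, 144 and 140, while Slc2a1, or GLUT1, rose from 480, 425 and 369 to 528, 582 and 636. Hk2, a hexokinase, rose from 1646, 1600 and 1564 to 1820, 1957 and 1996. Treated samples and controls were apart in all 5 genes.

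Mitochondrial genes moved by small amounts. In the list of the TCA cycle, ketone and branched-chain oxidation, 17 of 41 were lowered and 1, the iron-regulated Aco1, was raised, with a median log2 fold change of −0.15. The number lowered was 7 without PBS sample 3 and 10 without hlOSM sample 2. Pcca, a subunit of propionyl-CoA carboxylase, fell from 292, 320 and 305 normalized counts to 234, 245 and 249, and Oxct1, which activates ketone bodies, from 1466, 1410 and 1505 to 1236, 1264 and 1267. Both had the treated samples under the controls. Among 74 nuclear-encoded subunits of the respiratory chain, 8 were lowered and 1 raised, shares under those of all genes, and the median was −0.06. The lowered ones numbered 2 without PBS sample 3 and 5 without PBS sample 1 or hlOSM sample 3. The raised one was Cox8a, named after its value had been seen, which was lost without PBS sample 1 or hlOSM sample 1, and 2 were raised without PBS sample 3 or hlOSM sample 2. Cycs, cytochrome c, fell from 167, 155 and 171 to 139, 130 and 131.

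Of 25 genes of mitochondrial dynamics, the creatine shuttle and oxygen storage, 10 were lowered and 0 raised in limma, 12 and 0 at an unadjusted p under 0.05, and 7 and 0 in the fit with the block. The lowered genes numbered 4 without PBS sample 3 and 6 without PBS sample 1 or hlOSM sample 1, and 1 gene was raised without hlOSM sample 1. Mfn2, which fuses mitochondria, fell from 1425, 1397 and 1468 normalized counts to 1147, 1192 and 1257. Ckb, the brain type creatine kinase, fell from 103, 115 and 105 to 44, 42 and 47, a log2 fold change of −1.26 (SE 0.12, adjusted p = 2.23e-08). The groups were apart in both.

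In the list of ribosome biogenesis 21 of 51 genes were raised and 1 lowered, with a median log2 fold change of 0.16, and 19 and 1 with the block. Polr1b, a subunit of RNA polymerase I, rose from 205, 181 and 182 normalized counts to 263, 276 and 288, a log2 fold change of 0.54 (SE 0.07, adjusted p = 5.09e-06). Utp4 and Heatr1, processing factors of the small subunit, rose from 217, 205 and 192 to 270, 271 and 354 and from 713, 711 and 618 to 809, 873 and 984. Polr1e, another polymerase I subunit, was the lowered gene, from 176, 202 and 195 to 121, 124 and 118. No group overlapped in these 4 genes. Of the 74 ribosomal protein genes 17 were raised and 0 lowered in limma, 24 and 0 at an unadjusted p under 0.05, with a median of 0.12. With the block 12 were raised, 10 without PBS sample 2 or hlOSM sample 3, and 9 without PBS sample 3. Rps12 rose from 100, 87 and 86 to 124, 117 and 123.

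Aminoacyl-tRNA synthetases and translation factors had 12 of 32 raised and 0 lowered in limma, with and without the block, and 15 and 0 at an unadjusted p under 0.05. Their median was 0.12. Eif5a, a translation factor, rose from 313, 280 and 289 normalized counts to 372, 371 and 460, and Wars, the tryptophan enzyme, from 172, 176 and 163 to 207, 224 and 242. Every treated sample exceeded every control in both. Among 32 genes of endoplasmic reticulum folding, 5 were raised (15.6%) and 4 lowered (12.5%), shares under those of all genes. With the block these were 2 and 3. The raised genes numbered 3 without any of the 3 PBS samples and 2 without hlOSM sample 3. Xbp1 rose from 216, 220 and 206 to 314, 281 and 328, while Ddit3, the stress factor CHOP, fell from 174, 186 and 205 to 130, 108 and 102. The remaining raised genes were Syvn1, Sdf2l1, Manf and Asns and the remaining lowered ones Trib3, Canx and Ppp1r15a, of which Sdf2l1, Manf, Asns, Canx and Ppp1r15a were named after their values had been seen.

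Proteasome subunits showed few changes, with Psmb2, Psmd8 and Psma7 raised and Psme4 and Psma4 lowered among 33. Psma7 did not hold with the block, and 1 subunit was lowered without PBS sample 1, PBS sample 3 or hlOSM sample 3. Psma4 was named after its value had been seen. Muscle ubiquitin ligases and Kelch proteins, in contrast, had 16 of 26 lowered and 5 raised among those at 10 or more in all 6 samples, a median of −0.24, and 2 further genes raised. Asb15, a muscle ligase subunit, fell from 316, 244 and 288 normalized counts to 53, 64 and 74, a log2 fold change of −2.14 (SE 0.11, adjusted p = 2.54e-12), and Klhl33 from 184, 207 and 225 to 68, 63 and 63. Cblb, a ligase that restrains receptor signals, rose from 247, 223 and 234 to 516, 495 and 558. The samples did not overlap in any of the 3. Fbxo32, or atrogin-1, was named after its value had been seen and fell by 0.51 on the log2 scale, and Trim63, or MuRF1, was not past the threshold at −0.04.

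The list of 23 small heat shock and HSP70/90 chaperones had 3 raised and 3 lowered, 13.0% each, under the shares of all genes. The median log2 fold change was −0.07. Hspb1, or HSP25, had 57, 54 and 44 normalized counts with PBS and 160, 161 and 198 with hlOSM, a log2 fold change of 1.73 (SE 0.11, adjusted p = 4.65e-11). Cryab, or alpha B crystallin, rose from 492, 450 and 466 to 599, 596 and 654, and Hspb2 from 76, 68 and 71 to 123, 117 and 143. The latter pair overlap each other on opposite strands, Hspb2 over 30.2% of its exonic bases. All treated samples were above the controls. The lowered genes were Hspa1b, Hsph1 and Dnajb4, the first and last named after their values had been seen, and 1 gene, Hspa1b, was lowered with the block. Without PBS sample 1 or hlOSM sample 2 the lowered genes also numbered 1.

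Genes of survival and the cell cycle had 7 of 30 raised (23.3%) and 8 lowered (26.7%), against 18.2% and 19.8% of all genes. Pim3, a survival kinase, rose from 127, 118 and 108 normalized counts to 253, 248 and 303, a log2 fold change of 1.18 (SE 0.09, adjusted p = 1.18e-09). Bcl2l1, or BCL-XL, rose from 415, 363 and 350 to 473, 544 and 554. Ccnd1, or cyclin D1, fell from 278, 295 and 304 to 90, 84 and 104, and 23.4% of its exonic bases are shared with an opposite-strand gene. The treated samples of all 3 were clear of the controls. Pim1, a common STAT3 target named after its value had been seen, fell by 0.33 on the log2 scale.

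Secreted growth factors had 9 of 35 raised and 14 lowered. Of the 31 at 10 or more in all 6 samples, 6 were raised and 13 lowered, with a median log2 fold change of −0.20. Inhbb (ENSMUSG00000037035), a chain of activin B, rose from 45, 38 and 37 normalized counts to 252, 240 and 320, a log2 fold change of 2.72 (SE 0.13, adjusted p = 5.65e-13). Fgf2 rose from 483, 412 and 292 to 787, 901 and 1136. Angpt1, which steadies blood vessels, fell from 90, 85 and 164 to 30, 33 and 28, and Sema3c from 541, 581 and 653 to 360, 356 and 342. The groups were apart in all 4 genes. Fgf23, a hormone of phosphate balance, went from 2, 0 and 2 to 49, 63 and 68, while Vegfa fell from 461, 442 and 589 to 351, 328 and 291, both named after their values had been seen.

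Antioxidant enzymes had 12 of 31 raised and 6 lowered. Sod3, the extracellular superoxide dismutase, rose from 27, 28 and 26 normalized counts to 91, 83 and 92, a log2 fold change of 1.68 (SE 0.14, adjusted p = 2.66e-09), and Aox1, aldehyde oxidase, fell from 931, 854 and 907 to 562, 652 and 619. Of 31 genes of cholesterol synthesis and transport, 8 were raised, and Insig1 and Abcg1, named after their values had been seen, were lowered. Star, which carries cholesterol into mitochondria for steroid synthesis, rose from 252, 200 and 99 to 1188, 1468 and 1868, a log2 fold change of 3.11 (SE 0.22, adjusted p = 2.91e-10). These 3 genes had no overlap of the samples.

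The cytoskeleton list had 16 of 43 raised and 11 lowered, and 15 of 39 and 10 among those at 10 or more in all 6 samples. Anxa1, the anti-inflammatory annexin, fell from 296, 285 and 409 normalized counts to 76, 84 and 72, a log2 fold change of −2.06 (SE 0.11, adjusted p = 2e-12). Its relative Anxa2, named after its values had been seen, rose from 296, 261 and 178 to 456, 501 and 619. Ezr, or ezrin, rose from 207, 207 and 224 to 393, 354 and 362, and Flna, or filamin A, fell from 1033, 979 and 1066 to 683, 708 and 613. In all 4 the groups stood apart.

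Markers of the cells present moved with the treatment as well. All 12 cardiomyocyte markers passed the filter on low values, 9 were lowered and 0 raised in limma, 11 and 0 at an unadjusted p under 0.05, and the median log2 fold change was −0.31. Their summed normalized counts were 20501, 19769 and 21865 with PBS and 16060, 16631 and 15962 with hlOSM, and Ryr2 contributed most. Of 13 fibroblast markers 5 were raised and 8 lowered, or 4 and 7 of the 11 at 10 or more in all 6 samples, with sums of 3034, 2992 and 3282 against 2962, 2773 and 2989. Col3a1 contributed most there and rose, while Dpt, named after its value had been seen, fell by 1.32 on the log2 scale. Endothelial markers had 9 of 13 raised and 1, Fabp4, lowered, and 8 and 1 with the block. Their sums were 1731, 1728 and 1637 with PBS and 2284, 2120 and 2300 with hlOSM, and Kdr, which contributed most, rose from 370, 395 and 382 to 464, 434 and 458. In bulk samples, fewer cells of a type and less RNA per cell cannot be told apart.

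Smooth muscle and pericyte markers fell in 8 of 9 tested genes, with a median log2 fold change of −0.77 and sums of 1973, 1953 and 2315 against 1270, 1351 and 1345. Abcc9 contributed most, from 925, 858 and 1017 down to 588, 657 and 682, and also encodes a subunit of the potassium channel of cardiomyocytes. Acta2 and Tagln, which the list of dedifferentiation markers also holds, belong here, and 67.9% of the exonic bases of Tagln are shared with an opposite-strand gene. Myeloid markers had 1 of 9 tested genes raised, the lysosomal Cd68, and 2 lowered, Lyz2 and Mrc1. Their sums were 417, 425 and 476 with PBS and 470, 419 and 492 with hlOSM, which overlap, and Lyz2 contributed most with 164, 181 and 184 against 163, 140 and 135. The fall of Mrc1 did not hold with the block, and 0 myeloid markers were lowered without PBS sample 3, hlOSM sample 2 or hlOSM sample 3. Without PBS sample 1 or 2, mOSM sample 1 or any mLIF sample, 1 was lowered.

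The table held 4 of the 12 lymphocyte markers, which summed to between 2 and 5 normalized counts per sample, with Cd79a at most 4. It held 1 of the 7 erythroid markers, Alas2, at 2 normalized counts or fewer, and 0 markers of either list passed the filter. Schwann cell and adipocyte markers summed to 35, 40 and 45 with PBS and 25, 31 and 17 with hlOSM. Proliferation markers had 8 of 14 lowered and 0 raised in limma, as at an unadjusted p under 0.05. Without hlOSM sample 3, 5 were lowered. The sums were 1525, 1505 and 1746 against 1268, 1166 and 1090. Mki67 contributed most, from 604, 583 and 718 down to 512, 487 and 411. Across these 9 lists, 0 of the markers in the table were at 0 in all 6 samples. The part of changed cell content in the results above was not tested. Fabp4, Dpt, Cd68 and Mrc1 were named after their values had been seen.

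**Figure D3:**
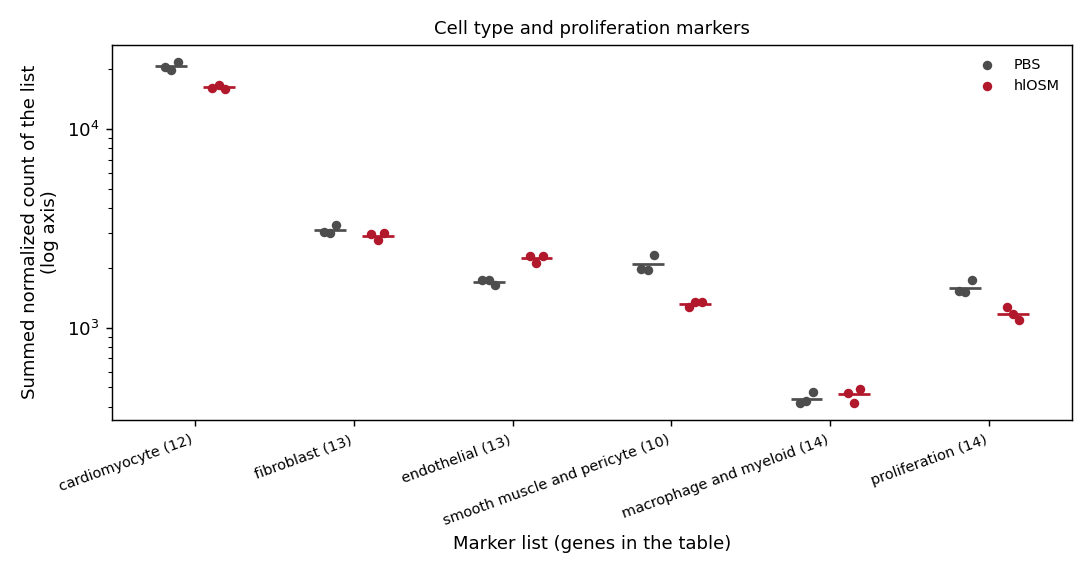
Summed normalized counts of each marker list (vertical axis) in each PBS and hlOSM sample (points). Endothelial markers summed to 1637 to 1731 with PBS and 2120 to 2300 with hlOSM, and smooth muscle and pericyte markers to 1953 to 2315 and 1270 to 1351.

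The direct comparison with mLIF, which engages LIFR alone, put 978 genes higher with hlOSM (7.42% of those tested) and 1216 lower (9.22%). With the block these were 724 and 878. The comparisons of hlOSM, mOSM and mLIF with PBS share the same controls, so their values are set side by side. The largest differences from mLIF with a mean of at least 50 were all higher with hlOSM. Il33 had 7, 18 and 18 normalized counts with mLIF, a log2 difference from hlOSM of 3.87 (SE 0.34, adjusted p = 2.85e-08). Serpinb2 had 14, 11 and 16 with mLIF and differed by 3.44, and Abi3bp had 35, 35 and 28 and differed by 3.13. Itgb8 had 32, 27 and 30 and differed by 3.12, and Prg4 had 21, 25 and 25 and differed by 3.00. In all 5 the mLIF samples lay under every hlOSM sample.

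By function, the number of genes that differed from mLIF varied between lists. Of all genes tested, 7.42% were higher with hlOSM than with mLIF and 9.22% lower. Of the 26 interferon-stimulated genes at 10 or more in all 6 PBS and hlOSM samples, 12 were lower with hlOSM than with mLIF and 2 higher, and the medians against PBS were −0.63 with hlOSM, −0.56 with mOSM and −0.12 with mLIF. Of the thin filament genes 9 of 17 and of the thick filament genes 8 of 17 were lower with hlOSM than with mLIF. Ion channels had 16 of 36 lower and metabolic regulators 14 of 37 lower. Of the 9 acute phase and iron genes at such values 6 were higher, with medians against PBS of 0.57, 0.42 and 0.31. Ribosome biogenesis had 3 of 51 higher and 1 lower, 1 and 1 with the block, and 16 and 1 at an unadjusted p under 0.05. Its medians against PBS were 0.16 with hlOSM, 0.15 with mOSM and 0.00 with mLIF. Respiratory chain subunits had 0 of 74 in either direction in limma, with 1 higher and 2 lower at an unadjusted p under 0.05. Il6 had 11, 16 and 11 normalized counts with mLIF and Ccnd1 278, 256 and 291, close to the controls of both genes, and each differed from hlOSM (log2 differences of 2.65 and −1.56, adjusted p = 2.54e-08 and 9.07e-11). Cdk4, in contrast, had 146, 131 and 145 with mLIF and 135, 148 and 168 with hlOSM, and the difference was not past the threshold.

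Against mOSM, which engages OSMR alone in mice, 14 genes differed (0.106% of those tested), 0 higher and 14 lower with hlOSM in limma, and 987 genes had an unadjusted p under 0.05, 382 of them higher. With the block 2 genes passed, Arc and Camk2b, and when only the 6 samples compared were fitted 0 passed, with 797 at an unadjusted p under 0.05. The log2 differences of all genes lay between −0.32 and 0.30 from the 5th to the 95th percentile, with a median standard error of 0.11. All 14 genes were also lowered by hlOSM against PBS, a comparison that uses the same hlOSM samples. Camk2b, a subunit of the kinase CaMKII, had 37, 35 and 44 normalized counts with hlOSM, 67, 74 and 66 with mOSM and 94, 90 and 95 with PBS. Lrrc10, a heart-specific protein of the Z-disc, had 63, 64 and 67 with hlOSM, 96, 102 and 95 with mOSM and 223, 204 and 272 with PBS. Perm1 had 304, 265 and 292 with mOSM, between its hlOSM and PBS values given above. In these 3 genes no hlOSM sample reached the mOSM samples, and no mOSM sample reached the PBS samples. Cxcr4, the receptor of CXCL12, was low, at 3, 2 and 4 with hlOSM, 14, 11 and 7 with mOSM and 15, 14 and 15 with PBS. The number of genes past the threshold ranged from 1, without mOSM sample 3, to 17, without PBS sample 3, when each of the 12 samples was left out in turn.

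**Figure D4:**
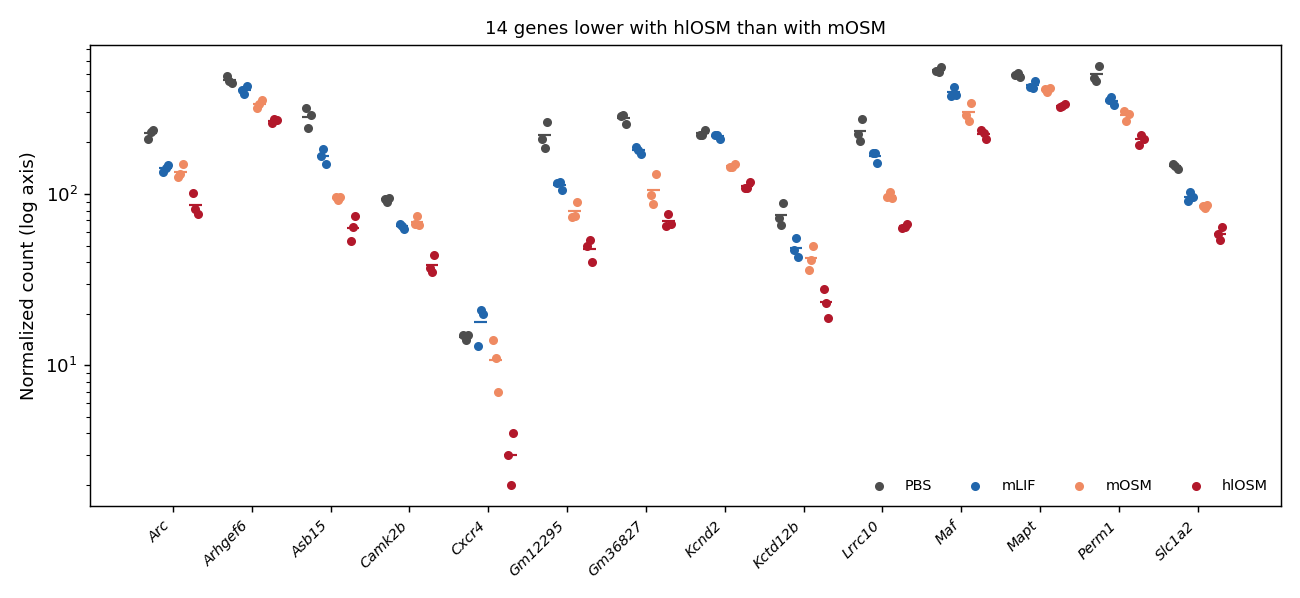
Normalized counts on a log axis in each PBS, mLIF, mOSM and hlOSM sample (points) for the 14 genes lower with hlOSM than with mOSM. Camk2b lay at 35 to 44 with hlOSM, 66 to 74 with mOSM and 90 to 95 with PBS.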

How the data were processed

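The deposited table gives a score per gene and sample, which the authors made by aligning reads to mm10 with STAR 2.7.7a, counting them per gene with featureCounts 1.6.5 and normalizing the counts, here called normalized counts. They are rounded to whole numbers, the step that normalized them is not named in the methods, and the methods give an average depth, but not that of each sample. Sums over genes lay between 2745748 and 2911891 in the 12 samples. Genes with at least 10 normalized counts in 3 or more samples were kept. The values, as log2(normalized count + 1), were fitted in limma 3.58.1 (R 4.3.3) with 1 mean for each of the 4 conditions over all 12 samples and a variance trend. Two-sided p-values were adjusted by Benjamini and Hochberg over the 13184 genes, with a threshold of 0.05. Samples were not paired, and nothing in the labels says that replicates are separate cell preparations, so p-values measure the spread among these samples. The code was tested on simulated data. Where the errors were independent, p-values without the block kept to their threshold. Where replicate means were removed, close to the pattern of these samples, they were too small without the block, with more false calls than the threshold allows, and not with it.

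Named genes were the 10 largest rises and falls with a mean of at least 50 and no overlap of samples, the 4 smallest adjusted p in each function list among genes with such a mean, a panel of known response genes, all genes past the threshold against mOSM, the 5 largest differences from mLIF and the most abundant gene of each marker list. The text uses part of them, and any other gene was chosen after its values had been seen. The 41 function lists and 9 marker lists, like the comparisons, were chosen with earlier results of these data known. Mitochondrially encoded genes were not analysed here. Some genes are not reported here. Overlap of exons with other genes was read from the annotation. Per the methods, reads on more than 1 gene were left out, so genes with shared exons can be undercounted, and whether strand was used is not stated. Alternatives were pseudocounts of 0.1 and 5, no filter, a filter at 50, median-of-ratios scaling, quantile normalization, robust variance moderation, the replicate number as a block, a fit of the 6 samples compared, an adjusted p under 0.01, minimum changes of 1.5-fold and 2-fold, and leaving out each sample. Upstream windows were those of RefSeq GRCm38.p6. Tables and figures were made with Python 3.11.15, pandas 2.3.3, numpy 2.4.6 and matplotlib 3.10.9.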

Additional observations from a re-analysis of the deposited data

Results flagged for a closer look

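In 14 genes the response to hlOSM differed from that to mOSM in the direct limma test, each with less RNA under hlOSM. The log2 difference between hlOSM and mOSM was −0.82 for Camk2b and −0.65 for Arc, which also passed with the replicate number as a block (adjusted p = 0.0323 for each), as no other gene did. Among genes of heart and skeletal muscle it was −0.59 for Lrrc10, −0.58 for Asb15, −0.46 for Perm1 and −0.38 for Kcnd2. It was −1.53 for Cxcr4, whose values were at most 14 in these 6 samples, and −0.84 for Kctd12b. The transcription factor gene Maf differed by −0.41, the microtubule-binding Mapt by −0.31, the exchange factor gene Arhgef6 by −0.32 and the glutamate transporter gene Slc1a2 by −0.53. Gm12295 and Gm36827, of unknown function, differed by −0.71 and −0.58. In all 14 the mean with mOSM lay between the means with hlOSM and with PBS. Their adjusted p values ranged from 0.00426 to 0.0464.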

How the results depend on the processing

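The numbers of genes changed by hlOSM against PBS moved by over 1.5 times only with a minimum change among the settings tried. At least 1.5-fold left 921 raised and 1030 lowered genes, and at least 2-fold left 403 and 442. With the replicate number as a block they were 1942 and 2178, and over the genes at 10 or more in all 6 samples, a count chosen after seeing the data, 2110 and 2290. Leaving out 1 of the 12 samples gave between 1801 (without hlOSM sample 3) and 2515 raised and between 1948 (without PBS sample 3) and 2785 lowered genes. Against mLIF, 2194 genes passed in all, 1602 with the block, between 1529 and 2354 without 1 sample, 1242 at an adjusted p under 0.01, 894 at 1.5-fold and 367 at 2-fold. Against mOSM, the 14 genes became 6 without the filter, 7 with median-of-ratios scaling, 2 with the block, 1 at an adjusted p under 0.01, 6 at 1.5-fold and 1 at 2-fold. A limma fit of the 6 samples compared gave 0, with 797 genes at an unadjusted p under 0.05. Without 1 sample, 1 (mOSM sample 3) to 17 (PBS sample 3) passed, with 2 without hlOSM sample 1 or mOSM sample 1, 4 without any mLIF sample, 5 without PBS sample 1 or 2, hlOSM sample 2 or mOSM sample 2, and 10 without hlOSM sample 3. The cause of these moves was not tested.

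Of 190 named genes, 186 passed against PBS and 177 of these passed under each setting in which they were tested, while Ccl7, Hsph1, Lyz2, Myh6, Ndufa10, Ndufa8, Psma7, Psmb10 and Ttn did not under at least 1, and 0 of the 186 reversed direction. Ttn was lost only with quantile normalization, which gives the most abundant gene the same value in every sample and so cannot test it. Atp2a2, which did not pass, turned from −0.14 to 0.16 with quantile normalization and passed there. The replicate number held 1.7% of the variance within conditions, against 25% without an effect, and deviations of same-numbered hlOSM and PBS samples correlated at −0.4, −0.32 and −0.41 across genes, which are not independent. Same-numbered samples thus deviated in opposite directions, which does not pair them, and what the numbers mark is not stated. The depth of each sample is unknown, so no counting limit can be given for genes at or near 0.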

Other observations

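The genes changed by hlOSM were also counted by kind, level and length of gene. Of 641 tested long noncoding RNA genes, 72 were raised (11.2%) and 171 lowered (26.7%), with a median log2 fold change of −0.17, while of the 11831 protein-coding genes 2255 were raised (19.1%) and 2352 lowered (19.9%). In the fit with the block, 62 long noncoding genes were raised and 139 lowered. Ordered by mean normalized count in 4 groups of equal size, 426 of the 3296 genes in the lowest group were raised and 529 lowered, and of the 3296 in the highest 599 and 936. Ordered by exonic length, 16.8% of the shortest group were raised and 13.9% lowered, and 17.1% and 29.0% of the longest. These shares are descriptions, and no difference between them was tested.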
